A study of Mus musculus with 9 samples.

Results

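The cells described here were the top 5% of each of 3 wild-type libraries of mouse neocortex when cells were ranked by the summed level of Actb, Clasp2, Nfia, Pam and Ncam1. They numbered 449 of 8975 cells. The library WT2 gave 59 of 1185 cells, WT3 gave 81 of 1617 and WT4 gave 309 of 6173. They were chosen by measured values, and the 5 genes that chose them are therefore described without a test. Each was set against the other 95% of cells in its own library, 8526 cells in all.

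The study compared neocortices of wild-type and Tcf4 knockout littermates at E18.5 from a line given as Tcf4ex4WT/lacZ, using droplet capture and 3′ counting of unique molecular identifiers (UMIs). One library was made per embryo. WT2, WT3 and WT4 were wild type, KO4 and KO5 were knockout, and a further library was labelled WT5. The level of a gene is given throughout as UMIs per 10000 UMIs of the cell, averaged over cells. No treatment or age difference separates the groups.

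Actb encodes beta-actin, the main actin of non-muscle cells. Clasp2 encodes a protein that stabilises microtubule plus ends, Ncam1 a neural adhesion molecule, Pam the enzyme that amidates secreted peptides, and Nfia a transcription factor of the nuclear factor I family known for its role in gliogenesis. The fetal neocortex at this stage holds radial glia, intermediate progenitors, migrating and layered excitatory neurons, and immigrant interneurons, all of which use actin and microtubules as they move and extend processes.

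Actb (GRCm38 chromosome 5, 142903115 to 142906754, minus strand) made up most of the sum. Its mean level was 196 in the selected cells of WT2, 273 in those of WT3 and 163 in those of WT4, against 42.7, 53.4 and 34.0 in the other cells, or 4.60, 5.11 and 4.80 times as much. Actb carried 89.2% of the sum in the selected cells of WT2, 90.0% in WT3 and 86.2% in WT4. Ranking by Actb alone returned 53 of the 59 cells of WT2, 75 of the 81 of WT3 and 285 of the 309 of WT4. Ranking by the other 4 genes returned only 25, 25 and 140 of them.

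The other 4 genes were also higher in the selected cells of every library. Clasp2 (chromosome 9, 113741473 to 113919682) averaged 3.49, 4.35 and 3.09 in WT2, WT3 and WT4, against 0.590, 0.935 and 0.666. Ncam1 (chromosome 9, 49502136 to 49798925) averaged 13.8, 13.7 and 15.4, against 4.82, 5.07 and 6.40. Pam (chromosome 1, 97795114 to 98095646) averaged 1.84, 5.97 and 2.94, against 0.645, 1.74 and 0.814. Nfia (chromosome 4, 97772734 to 98118874) had the smallest ratio, at 4.70, 6.44 and 4.80 against 2.71, 3.27 and 2.13. Single cells varied widely, and the median selected cell of WT2 had no Pam UMI. Cells chosen by Actb alone, a choice that used none of these 4 genes, had 5.39, 4.37 and 4.36 times as much Clasp2 as the rest of the 3 libraries in turn, with Nfia at 1.65, 1.66 and 1.95 times.

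**Figure D1:**
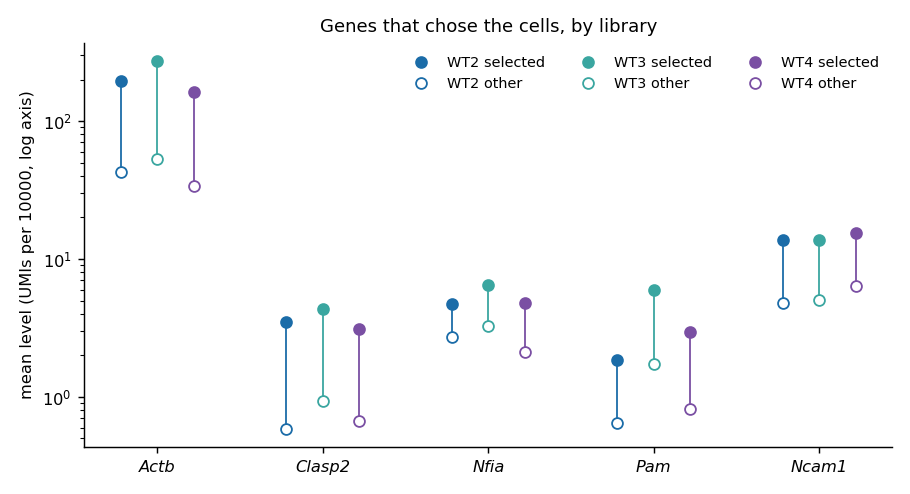
Mean level of the 5 genes that chose the cells (y axis, UMIs per 10000, log axis) in selected cells (filled) and other cells (open) of WT2, WT3 and WT4. Actb lies above the other 4 genes in every library, and each filled point lies above its open partner because the cells were chosen by these values.

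The threshold did not fall in a gap. The lowest selected cell had a sum of 177.24 in WT2, 261.04 in WT3 and 154.19 in WT4, and the highest cell left out had 177.22, 260.57 and 154.14. Most cells formed one peak below these values, with a median over the other cells of 46.0, 39.0 and 36.7. A long upper tail followed. In WT3 this tail rose again, from 1.9% of cells at a sum of 100 to 120 to 2.8% at 180 to 200. A sum of 100 or more was reached by 138 cells of WT2 (11.6%), 375 of WT3 (23.2%) and 695 of WT4 (11.3%), so the top 5% took only the upper end of that tail.

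The remaining libraries were distributed differently. The median sum over all cells was 234 in the library labelled WT5, 204 in KO4 and 200 in KO5, against 47.1, 40.2 and 37.7 in WT2, WT3 and WT4. In these libraries 97.3%, 89.1% and 91.2% of cells reached the threshold of WT4. Tcf4, the targeted gene, averaged 7.20 over the cells of WT5, below the 9.29 of KO4 and the 7.59 of KO5. WT2, WT3 and WT4 averaged 12.2, 12.6 and 12.2. The paper reports leaving out a wild-type animal whose Tcf4 was lower than in the knockout, without naming its library. Since 3′ counts lie outside exon 4, where the line's name places the lacZ insertion, they are no direct check of the allele. Within WT2, WT3 and WT4, Tcf4 averaged 12.5, 10.8 and 10.6 in the selected cells and 12.2, 12.7 and 12.2 in the others, and the difference of -0.12 ± 0.06 (log2 scale, SE) did not pass the test (limma, adjusted p = 0.20).

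**Figure D2:**
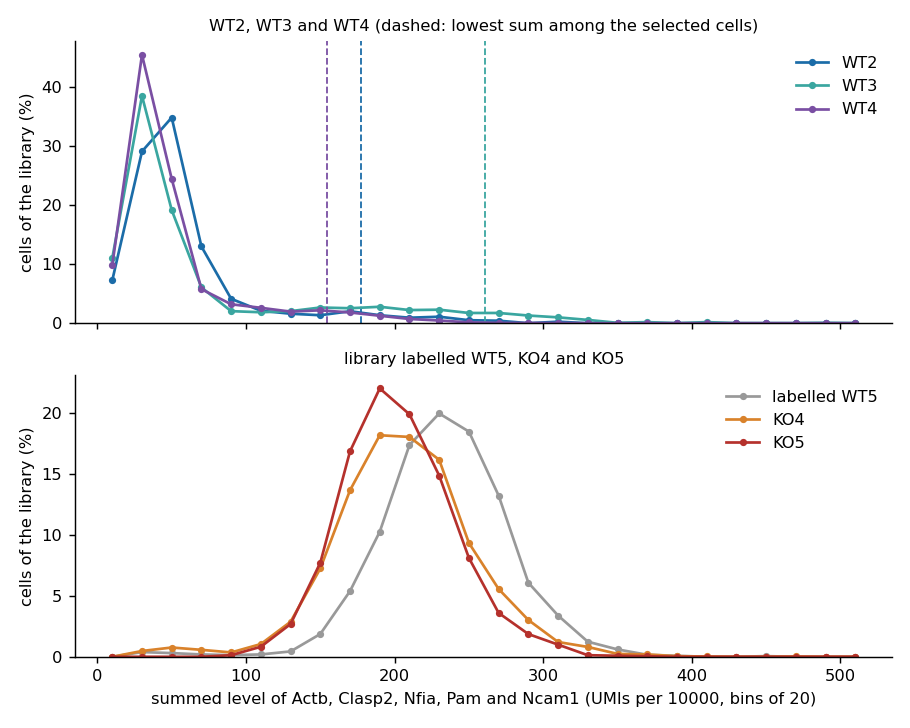
Share of the cells of each library (y axis, %) by summed level of the 5 genes (x axis, UMIs per 10000, bins of 20). WT2, WT3 and WT4 peak below 60 with a long tail that the dashed thresholds cut. In WT3 the tail rises again, from 1.9% at 100 to 120 to 2.8% at 180 to 200. The library labelled WT5, KO4 and KO5 form a single peak near 200, with a median of 234 in the first.

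Other genes were tested with limma on log2(mean level + 1), a scale that understates the change of low genes, in selected and other cells of the 3 libraries, with the library as a block and the 5 choosing genes left out. A set of genes outside the rule rose in every library, and radial glial and progenitor genes fell. Of 3110 genes tested, 98 were higher (3.15%) and 253 lower (8.14%) in the selected cells at an adjusted p under 0.05, and 97 and 250 of these moved the same way in all 3 libraries. The median over all tested genes was -0.04. The lower count rested on the libraries used, with 130 without WT2 and 135 without WT3. With the other cells weighted to the selected cells' mix of clusters, 14 genes were higher and 5 lower. Count tests gave another split, at 122 higher and 143 lower with edgeR and 95 higher and 47 lower with DESeq2. When cells were chosen on one random part of their UMIs and levels were read in the other part, 76 genes were higher and 139 lower, 66 and 117 of them shared with the counts above.

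Gnb1, which encodes a beta subunit of heterotrimeric G proteins, had the largest rise. Its level was 17.5, 19.1 and 15.4 in the selected cells of WT2, WT3 and WT4, against 4.35, 6.74 and 4.88 in the others. The difference was 1.55 ± 0.07 on the log2(level + 1) scale (SE, limma, adjusted p = 5.62e-12). Dpysl2, also called CRMP2, binds tubulin and acts in axon growth. It stood at 20.9, 22.2 and 21.5 against 7.64, 8.70 and 7.93, a rise of 1.31 ± 0.05 (limma, adjusted p = 1.70e-12). Its level was nearly equal in the selected cells of the 3 libraries.

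Kdm6b, Cbx3, Runx1t1 and Cux2 were also among the 10 largest rises. Kdm6b, a demethylase of histone H3 lysine 27, stood at 3.78, 5.21 and 4.17 in the selected cells and 0.772, 1.52 and 1.04 in the others, a rise of 1.36 ± 0.08 (limma, adjusted p = 3.76e-10). Cbx3, a heterochromatin protein 1 family member, stood at 20.4, 17.0 and 11.3 against 8.75, 6.31 and 3.90, a rise of 1.25 ± 0.06 (limma, adjusted p = 1.36e-11). Runx1t1, a transcriptional corepressor, stood at 5.63, 5.25 and 4.49 against 1.42, 1.53 and 2.14 and rose by 1.19 ± 0.10 (limma, adjusted p = 7.85e-08). Cux2, a homeobox gene of upper-layer neurons and their progenitors, stood at 2.65, 3.37 and 2.28 against 0.516, 1.11 and 0.671 and rose by 1.10 ± 0.09 (limma, adjusted p = 4.76e-08). For all 4, every selected set lay above every other set. These genes were named for the size of their rise, so that gap is a description. The share of all tested genes with such a gap was not counted. Paip1, which binds poly(A)-binding protein and promotes translation, rose by 1.19, and Abhd2, Marf1 and Dpf1 rose by 1.04, 0.97 and 0.96.

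These 10 rises held under most settings. Weighting the other cells to the selected cells' mix of clusters left 9 of the 10 called, with differences of 0.40 to 0.82 over the 10. The exception was Cux2, at 0.40 (limma, adjusted p = 0.070). Without the cluster that held the most selected cells, the 8 that were still tested were all called. With the library labelled WT5, KO4 and KO5 added, 1 of the 10 was called, Abhd2.

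**Figure D3:**
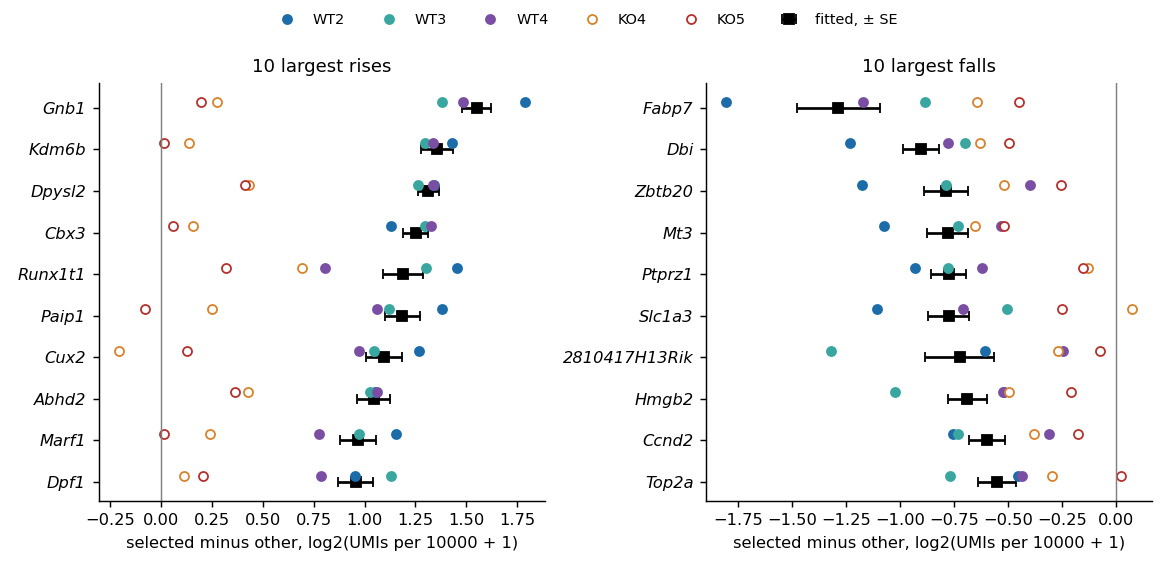
Difference between selected and other cells (x axis, log2 of UMIs per 10000 + 1) for the 10 largest rises and the 10 largest falls. Filled circles are WT2, WT3 and WT4, open circles KO4 and KO5, and squares the value fitted to the 3 wild-type libraries with its SE. For the rises, which were chosen by WT2, WT3 and WT4, the filled circles lie above the open ones in every gene, as for Gnb1 at 1.55 in the fit.

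The 10 largest falls included genes known from radial glia and from dividing cells. Fabp7, the fatty acid binding protein of radial glia, stood at 4.99, 9.98 and 6.66 in the selected cells and 19.9, 19.3 and 16.2 in the others, a difference of -1.29 ± 0.19 (limma, adjusted p = 0.029). Dbi, the acyl-CoA binding protein, stood at 4.58, 6.14 and 4.99 against 12.1, 10.6 and 9.27, a difference of -0.90 ± 0.08 (limma, adjusted p = 2.64e-07). Slc1a3, the glial glutamate transporter GLAST, stood at 0.161, 0.552 and 0.330 against 1.5, 1.20 and 1.17, a difference of -0.77 ± 0.10 (limma, adjusted p = 1.55e-05). In each of the 3 genes the selected and other sets did not overlap, which describes genes named for the size of their fall. The share of all tested genes with such a gap was not counted here either. Zbtb20, Mt3, Ptprz1, 2810417H13Rik, Hmgb2, Ccnd2 and Top2a made up the rest, with differences from -0.79 to -0.55. With the other cells weighted to the selected cells' mix of clusters, none of the 10 was called (limma, 1 at an unadjusted p under 0.05), and Fabp7 stood at 0.10.

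The share of all tested genes that fell, 8.14%, stands beside the following marker counts. Of the radial glial and astrocyte markers, all 10 tested of 15 fell, with a median of -0.63. Of the intermediate progenitor markers 4 of 5 tested fell, among them Neurog2 (-0.49), Gadd45g (-0.49) and Elavl4 (-0.35). Of the cycling markers 5 of 7 tested fell, with a median of -0.33. Among newborn neuron markers 2 of 5 fell, Unc5d and Sema3c. The 4 lists in this order had 10, 4, 5 and 1 lower members by edgeR and 6, 3, 4 and 0 by DESeq2. With the other cells weighted to the selected cells' mix of clusters, no member of these lists was called (limma, with 1, 1, 2 and 0 at an unadjusted p under 0.05), and Neurog2, Gadd45g and Elavl4 stood at -0.08, -0.18 and -0.16.

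Neuronal identity markers were read against the same shares of all genes, 3.15% higher and 8.14% lower. Of 6 upper-layer markers tested, Cux2 rose and Pou3f2 fell. None of 4 deep-layer markers was called (limma, 3 at an unadjusted p under 0.05, and 0 by edgeR and DESeq2). Of 4 interneuron and 3 striatal markers tested, Dlx1 and Meis2 fell. Single markers of other classes that fell were Reln, Zbtb20 and Olig1. Cux2 was the one tested marker of a brain cell type that rose, a call lost when the other cells were weighted to clusters. Cux2 itself leads the cluster that held the most selected cells. Without that cluster it was called, at 0.75 (limma, adjusted p = 4.17e-05). The microglial and mural lists had no member abundant enough to test. The summed level of 11 microglial markers was 2.67, 0.103 and 2.81 in the selected cells and 0.676, 0.669 and 2.12 in the others, with no common direction.

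Of 34 growth cone and microtubule genes tested, 13 rose (38.2%) and 2 fell (5.88%), where 3.15% and 8.14% of all tested genes did. Their median was -0.03, beside -0.04 over all genes. Both count tests called 13 as higher and none as lower, and weighting to clusters left 2 higher and 1 lower (limma). Tuba1a stood at 109, 122 and 128 in the selected cells and 87.7, 97.1 and 112 in the others, a rise of 0.27 ± 0.04 (limma, adjusted p = 4.60e-05). Stmn1, a tubulin-binding protein, rose by 0.25 and Tubb2b by 0.26. Dcx and Map2, which bind microtubules, fell by 0.39 and 0.25 in limma and were called by neither count test.

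Of 38 other actin cytoskeleton genes tested, 5 rose and 5 fell (13.2% each, against 3.15% and 8.14% of all tested genes), with a median of 0.02. The counts were 6 higher and 2 lower with edgeR and 5 and 0 with DESeq2, and none was called with weighting to clusters (limma, 7 at an unadjusted p under 0.05). Actg1, the other cytoplasmic actin, stood at 32.0, 33.9 and 33.5 in the selected cells and 29.9, 27.6 and 30.6 in the others, a rise of 0.17 ± 0.05 (limma, adjusted p = 0.029) beside Actb's 4.60- to 5.11-fold. The thymosins Tmsb4x and Tmsb10, which bind actin monomers, rose by 0.25 and 0.29. Marcks, Ezr, Rdx, Sptan1 and Sptbn1, which link actin to the membrane, fell by 0.31 to 0.37 in limma. With cells chosen without Actb, Tmsb4x, Tmsb10 and Actg1 stood at -0.04, -0.01 and -0.06.

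In the nuclear factor I family Nfib fell, at 8.0, 6.86 and 7.97 against 10.1, 13.9 and 10.2 (-0.52 ± 0.09, limma, adjusted p = 0.00066), and Nfix was not called (-0.09, adjusted p = 0.47). The counts that follow stand beside 3.15% higher and 8.14% lower of all tested genes. Of 20 adhesion genes tested none rose and 1 fell (5%), Ptprz1, with 7 at an unadjusted p under 0.05 and 1 rise by edgeR. A share this near that of all genes is no result about adhesion genes. Of 4 genes of the peptide secretory pathway, Cpe fell in limma and edgeR but not in DESeq2, and none rose by any of the 3 tests.

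Outside the choosing genes, the 5 largest rises in level were those of Tmsb4x, Tuba1a, Stmn1, Dpysl2 and Gnb1. The first 3 of them are abundant genes with a small relative change. Tmsb4x, for one, stood at 130, 127 and 148 against 109, 102 and 130.

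Depth was close in selected and other cells. Median UMIs per cell were 2788, 3619 and 4287 in the selected cells of WT2, WT3 and WT4, against 2463, 3638 and 4363 in the others (exact sign-flip test, 2-sided, p = 1.0, where 3 libraries cannot give a p below 0.25). Median genes per cell were 1338, 1608 and 1872 against 1294, 1746 and 1942 (exact p = 0.50). Each cell was also thinned to 1800 UMIs and the rule applied again to the thinned counts. Cells selected in this way had fewer genes in all 3 libraries, by -0.05 ± 0.02 on the log2 scale (SD, n = 3, exact p = 0.25). Actb, which chose them, takes more of their fixed 1800 UMIs, and its part in this difference was not tested.

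The median mitochondrial share was 3.51%, 4.47% and 3.46% in the selected cells and 3.82%, 4.45% and 3.59% in the others (exact p = 0.50). With each cell thinned to 1800 UMIs and the rule applied again, it was lower in the selected cells of all 3 libraries. The difference was -0.20 ± 0.12 percentage points (SD, n = 3, exact p = 0.25, the smallest that 3 libraries can give). Malat1, the most abundant nuclear RNA, stood at 286, 152 and 172 against 292, 185 and 193, a difference of -0.16 ± 0.04 (limma, adjusted p = 0.013). That call was lost with edgeR (-0.07, adjusted p = 0.47), and the value was 0.17 when cells were chosen without Actb. Of 5 nuclear long non-coding RNAs tested 2 fell and none rose, where 8.14% of all tested genes fell, and neither count test called any. Intronic reads are not counted in these files. Of 12 mitochondrial transcripts 3 fell, and of 24 splicing genes 2 rose (Srsf2 and Srrm2) and 4 fell. The count tests called none of these falls and 2 splicing genes as higher. No ribosomal protein gene of 82, no oxidative phosphorylation gene of 77, no heat shock gene of 8 and no immediate early gene of 4 was called by limma, with 3, 9, 4 and 1 at an unadjusted p under 0.05. Either count test called 1 oxidative phosphorylation gene as higher and none of the rest.

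Red cell RNA was higher in the selected cells of WT2, WT3 and WT4. All 4 haemoglobin genes tested rose, where 3.15% of all tested genes did. Hba-a2 rose from 1.09, 1.57 and 0.833 to 1.97, 2.23 and 1.22 (0.37 ± 0.09, limma, adjusted p = 0.00925). Both count tests called 2 of the 4, and none was called with weighting to clusters (limma). Hbb-bs, Hba-a1 and Hba-a2 were not called in the split counts (limma, adjusted p = 0.48, 0.14 and 0.059). In KO4 and KO5, Hba-a2 stood at 3.26 and 10.4 in the selected cells, against 5.34 and 12.3 in the others. The summed level of the 6 measured erythroid markers was 6.54 to 11.8 in the selected cells and 5.33 to 8.35 in the others. Its part in the other differences was not tested.

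Transcript length differed between rises and falls. The median transcript was 4758 bases for genes that fell, 2801 for genes that rose and 2632 for all tested genes, with a length for 98.0%, 96.9% and 97.1% of them. With genes split into 4 equal sets by transcript length, 17.5% fell and 3.71% rose in the longest set, against 2.91% and 2.91% in the shortest. The median difference went from 0.03 in the shortest set to -0.14 in the longest. The 10 largest rises had a median transcript of 5305 bases.

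Clusters of all 8975 cells, made without the 5 choosing genes, placed the selected cells. All 18 clusters held some. One cluster of 381 cells, led by Cux2, Hsf2, Kmt2d and Kdm6b, held 162 of the 449, and it remained unnamed because at most 2 markers of any class reached 1.5-fold in it, the upper-layer markers Cux2 and Pou3f2. It held 35 of 59 selected cells in WT2, 41 of 81 in WT3 and 86 of 309 in WT4. Since genes that rose in the selected cells lead this cluster, its share repeats their rise. A second unnamed cluster of 767 cells, led by Nefl, Nefm and Mef2c, held 79.

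Together the 3 unnamed clusters took 76.3% of selected cells in WT2 (95% exact binomial interval 63.4 to 86.4%, counting error only), 72.8% in WT3 (61.8 to 82.1%) and 47.2% in WT4 (41.6 to 53.0%). Their share of all cells was 14.6%, 17.3% and 14.3%. Radial glia-like or astrocyte-like cells gave 2 of the 449, against 6.79% ± 1.39 (SD, n = 3) of the libraries. Upper layer neuron-like cells gave 21, newborn neuron-like cells 12, interneuron-like cells 38 and striatal neuron-like cells 37. Endothelial-like cells gave 11 of their 99 and microglia-like cells 5 of their 59. With a sum of 100 or more in place of the top 5%, the share was 84.5% in the cluster led by Cux2 and 5.22% to 19.2% in each of the others.

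The rises were seen inside clusters of unlike cells. In WT4, the largest library, the summed level of the 10 largest rises was 75.8 in the 17 selected upper layer neuron-like cells and 24.1 in the others of that cluster. It was 55.6 against 13.0 in endothelial-like cells, 31.6 against 10.8 in microglia-like cells and 61.2 against 23.8 in striatal neuron-like cells. Over the 16 clusters with at least 4 selected cells the ratio ran from 1.22 to 4.29. The lowest was in the cluster led by Cux2, where cells outside the selection stood at 57.2. These values describe 1 library and have no replicate check. The 10 genes were chosen by their rise in the selected cells, those of WT4 among them, so their higher sum here is a description.

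**Figure D4:**
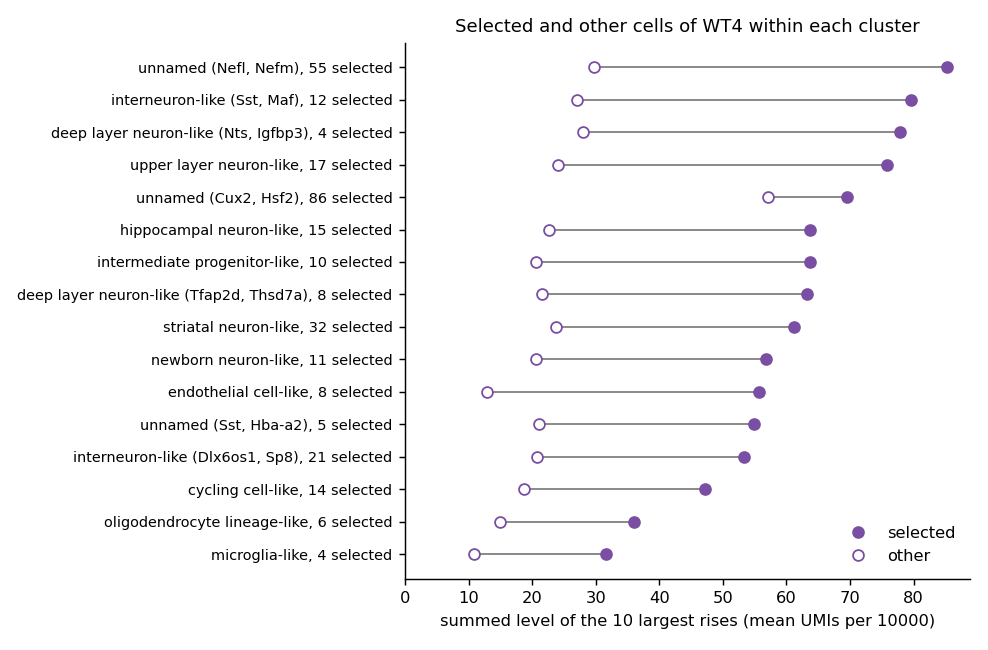
Summed level of the 10 largest rises (x axis, mean UMIs per 10000) in selected (filled) and other (open) cells of WT4, by cluster with at least 4 selected cells, with 2 leading genes for clusters that are unnamed or share a name. Selected cells lie above the others in all 16 clusters, by 1.22 to 4.29 times, and the gap is smallest in the cluster led by Cux2 and Hsf2. The 10 genes were chosen by their rise in WT2, WT3 and WT4.

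The same 10 genes followed the sum along its whole range. In WT4 their summed level was 12.7 in cells with a sum under 20, 23.2 between 40 and 60, 45.9 between 80 and 100, and 71.3 between 200 and 300. In WT3 it went from 12.1 to 76.7 and in WT2 from 17.6 to 80.2 over the same bins. The mean over all cells was 76.3 in the library labelled WT5, 67.2 in KO4 and 65.4 in KO5, beside 80.7, 83.8 and 67.3 in the selected cells of the 3 wild-type libraries and 25.8, 29.4 and 23.0 in their other cells. The 10 genes were chosen by their rise in the 3 wild-type libraries, so the trend there is a description.

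**Figure D5:**
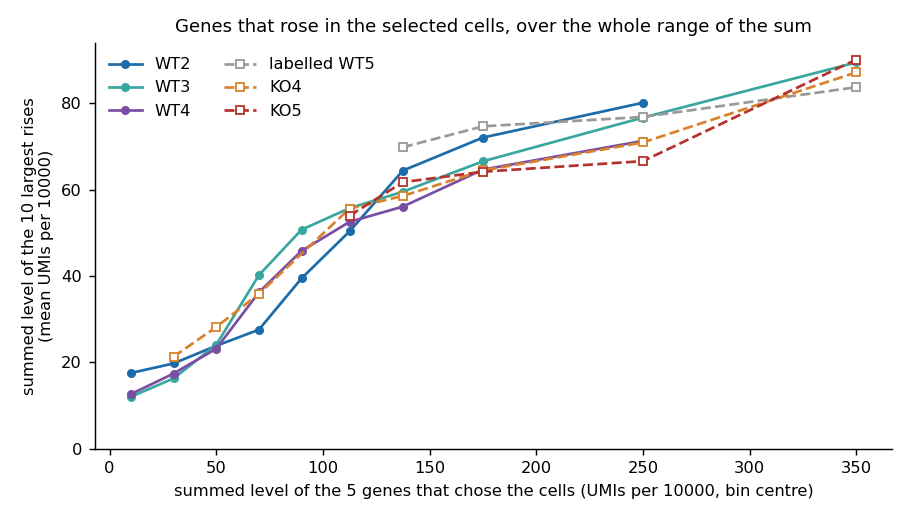
Summed level of the 10 largest rises (y axis, mean UMIs per 10000) by the summed level of the 5 choosing genes (x axis, UMIs per 10000), for bins of at least 20 cells, with cells at 300 or more drawn as the last point. The line rises in all 6 libraries, and starts between 12.1 and 17.6 in the lowest bin of WT2, WT3 and WT4.

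The difference between selected and other cells was then compared between WT2, WT3, WT4 and KO4, KO5, where the same rule took 210 and 115 cells. It differed for 42 of 3110 genes (1.35%, limma interaction). Gnb1 stood at 16.3 in the selected and 13.3 in the other cells of KO4 and at 15.4 and 13.3 in those of KO5. Its difference was lower than in WT2, WT3 and WT4 by 1.32 ± 0.13 (SE). Kdm6b stood at 5.02 and 4.48 in KO4 and at 4.41 and 4.35 in KO5 (-1.28 ± 0.12, SE). Gnb1 and Kdm6b were chosen by their rise in WT2, WT3 and WT4, libraries of this same comparison, so these differences are a description. In the library labelled WT5, left out of this comparison, Gnb1 stood at 16.5 and 14.5 and Kdm6b at 4.70 and 4.76. Actb itself was only 1.56 and 1.48 times as high in the selected as in the other cells of KO4 and KO5. It was 1.43 times as high in the library labelled WT5. In WT2, WT3 and WT4 it was 4.60, 5.11 and 4.80 times as high. Genotype and the position of the whole library on the sum cannot be told apart in this comparison.

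Cell barcodes were shared between libraries by few of these cells. A barcode found in any other of the 6 libraries was carried by 3 selected cells in each of WT2, WT3 and WT4. Scrublet marked 16 of 8975 cells (0.178%), too few for the caller to have worked, and no doublets were removed. Without the 5% of cells with the highest doublet scores, 115 genes were higher and 288 lower.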

How the data were processed

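Single-cell libraries of E18.5 neocortex were made with 10x Genomics 3′ v2 chemistry, and the submitters' notes name Cell Ranger 2.1.0, Seurat 2.3.4 and the GRCm38 build. The authors deposited WT2 and WT3 as natural log values of UMIs per 10000 plus 1, and WT4, WT5, KO4 and KO5 as UMI counts. Whole UMIs were recovered from the natural log files (100% of values within 0.01 of a whole number). The 3 other libraries of the series were not used here. Per library, deposited totals ran from 3487769 to 29767293 UMIs.

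Cells with over 1% haemoglobin UMIs were dropped. The rule was then applied per library. Means over cells were tested with limma 3.58.1 (trend, robust) on log2(level + 1), with genes at a mean level of at least 0.5 and Benjamini-Hochberg adjustment. edgeR 4.0.16 and DESeq2 1.42.0 were run on summed UMIs. The library was a block because selected and other cells came from the same embryo. P-values cover 3 embryos, and values for KO4 and KO5 cover 2. Clusters came from scanpy 1.11.5 (1700 UMIs per cell, 2000 variable genes, 30 components, 20 neighbours, Leiden resolution 1). They were named from marker lists where 3 markers of a class reached 1.5-fold and at least 1 was among the cluster's leading genes. A cluster stayed unnamed where a class short of 3 such markers had more of its markers among those leading genes. Scripts were tested on simulated data.

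Named genes were the 5 choosing genes, the 10 largest called rises and the 10 largest falls that moved the same way in all 3 libraries with at least 50 UMIs, the 3 most abundant members of each list and the 5 largest rises in level outside the choosing genes. Other called members are named where a list's count is given, and Tcf4 as the targeted gene. The cells, lists and tests were chosen with earlier results of these data known. Positions and transcript lengths are from GENCODE release M21.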

Additional observations from a re-analysis of the deposited data

Results flagged for a closer look

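The difference between selected and other cells differed between WT2, WT3, WT4 and KO4, KO5 for 42 genes in the limma interaction test, 29 of them with a lower value in the knockout libraries. Actb, which helped choose the cells, was 1.56 and 1.48 times as high in the selected cells of KO4 and KO5. It was 4.60, 5.11 and 4.80 times as high in those of WT2, WT3 and WT4. Genotype and the position of the library on the sum cannot be told apart here. The share of cells at or above the WT4 threshold was 97.3% in the library labelled WT5, 89.1% in KO4 and 91.2% in KO5. It was 7.09% in WT2, 17.6% in WT3 and 5.01% in WT4.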

How the results depend on the processing

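Alternatives changed the number of genes called more than their direction. The library block pairs selected and other cells of 1 embryo, and without the block 18 genes were higher and 6 lower, with Malat1 at -0.16. Leaving out 1 library gave 68 to 109 higher and 130 to 255 lower. Lower genes numbered 143 with edgeR, 47 with DESeq2, 435 at a mean level of at least 0.1, 54 with no filter, 167 for the top 2.5% of cells, 155 after thinning and 139 in the split counts. Counts higher and lower were 40 and 16 with the sum taken without Actb, 35 and 8 with each gene divided by its mean, 14 and 5 with other cells weighted to clusters, and 47 and 53 with WT5, KO4 and KO5 added. Without the cluster led by Cux2, an alternative chosen after seeing the data, they were 56 and 103. Cells of 100 or more against cells under 60, also chosen after seeing the data, gave 109 and 343, with Tcf4 lower by -0.16 (limma, adjusted p = 0.0014). Main calls that were tested had the same sign in at least 310 of 351 under every alternative on the same 3110 genes.

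Malat1 lost its call at -0.066 with edgeR, -0.053 with DESeq2, -0.16 with no filter, -0.14 for the top 2.5%, -0.056 weighted to clusters, -0.30 with 6 libraries and -0.087 without the cluster led by Cux2. It turned to 0.17 without Actb and 0.090 with each gene divided by its mean. Median UMIs moved to -0.085 (log2 ratio) with each gene divided by its mean. Selected cells in unnamed clusters, 65.5% on average, came to 42.5% without Actb, 42.5% with each gene divided by its mean and 43.8% at Leiden resolution 0.5.

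Weighted to clusters, Fabp7 turned to 0.10, Dbi to 0.11, Mt3 to 0.032, Hmgb2 to 0.19, Ccnd2 to 0.10 and Top2a to 0.11. Without Actb in the sum, Tmsb4x turned to -0.040, Tmsb10 to -0.013, Actg1 to -0.058, Nfib to 0.051, Cpe to 0.083, Sema3c to 0.11, Neurog2 to 0.0077 and Meis2 to 0.0041. With each gene divided by its mean, Tmsb4x turned to -0.045, Tmsb10 to -0.011, Pou3f2 to 0.047, Sema3c to 0.14, Elavl4 to 0.13, Neurog2 to 0.20 and Meis2 to 0.11. Cldn5 turned to 0.38 for the top 2.5%, and with 6 libraries Hbb-bs turned to -0.0139 and Hba-a1 to -0.0012. The cause of these changes was not tested. The 59 selected cells of WT2 held 173784 UMIs, which limits what low genes can show there.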
